A study of Mus musculus with 3 samples.

Results

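The genes described here are 42 genes of the secretory pathway and the unfolded protein response, chosen by name from the 32285 gene rows of the files, and all 42 were found. Their levels were measured in splenocytes of mice by droplet single-cell RNA sequencing from the 5′ end of the transcript. Each of 3 libraries pooled 2 conditions. The control library held male C57Bl/6 mice with a sham minipump and female C57Bl/6 mice. The Ang II library held male C57Bl/6 mice whose minipumps gave angiotensin II for 2 weeks from 10 weeks of age, at a dose the labels give as 490 ug/kg/min, with either placebo or 2-hydroxybenzylamine (2-HOBA), a scavenger of isolevuglandins. The B6.SLE123 library held female mice of that lupus-prone congenic strain given 2-HOBA or placebo for 6 weeks from 7 weeks of age. All mice were 12 to 14 weeks old at harvest, the cells of 3 mice per condition were combined, and T cells had been removed with CD3 beads. With 1 library per group, no difference between libraries had a replicate and none was tested. The Ang II library held only males, the B6.SLE123 library only females and the control library both. Strain or treatment, sex and the library itself cannot be told apart in any comparison between whole libraries. The intervals given cover counting error only.

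Secreted and membrane proteins enter the endoplasmic reticulum (ER) through the Sec61 translocon, lose their signal peptide to the signal peptidase, and are folded there by chaperones such as BiP and by disulfide isomerases. When unfolded protein accumulates, 3 sensors in the ER membrane start the unfolded protein response: IRE1 (Ern1) splices the Xbp1 transcript, ATF6 is cut to release a transcription factor, and PERK (Eif2ak3) slows translation and raises ATF4, which acts upstream of CHOP (Ddit3). Plasma cells secrete antibody at a high rate and need XBP1 to build their ER.

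Transcription factors of this response bind known DNA motifs, so the promoters of the genes were searched for 3 of them on both strands. RefSeq promoter windows of GRCm38.p6, from 250 bases before to 50 bases after the start site, matched 34 of the 42 genes. The ER stress response element (CCAAT and CCACG with 9 bases between them) was present in 8 of these 34 (23.5%) against 0.137% of all 27025 genes with a window. The unfolded protein response element (TGACGTGG) was present in Txndc5 and Txndc11 (5.88% against 0.714%), and the second ER stress element (ATTGG and CCACG with 1 base between them) was present in Herpud1 and Dnajb11 (5.88% against 0.0444%). None of these matches in the 34 genes overlapped another. The following stretches are printed in the direction of the gene for genes that recur in the results below, with the fixed bases of the motif in capitals (the second ER stress element is in capitals throughout). The element lies on the opposite strand in Creld2 and Derl3, where it reads as its reverse complement.
Hspa5 (chr2:34772015-34772053, plus strand): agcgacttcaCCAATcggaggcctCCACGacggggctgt
Creld2 (chr15:88819510-88819548, plus strand): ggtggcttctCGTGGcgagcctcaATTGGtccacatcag
Derl3 (chr10:75893232-75893270, plus strand): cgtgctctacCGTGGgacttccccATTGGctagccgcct
Canx (chr11:50325790-50325828, minus strand): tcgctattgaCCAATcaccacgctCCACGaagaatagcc
Herpud1 (chr8:94386367-94386397, plus strand): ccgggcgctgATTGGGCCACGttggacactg
Txndc5 (chr13:38528035-38528062, minus strand): gcctcgccgcTGACGTGGcgctagccgc
The other genes with the first element were Calr, Dnajc3, Hsp90b1 and Pdia6. A match describes the letters of the window and was not tested as a binding site. Genes with the first element included both the gene with the largest ratio between plasma cells and B cells in each library (Derl3) and one of the lowest (Canx), as described below.

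The libraries held 16062 to 20691 barcodes with a median of 1852 to 2842 unique molecular identifiers (UMIs) each, and 14017 to 16702 cells were kept. Each pair of libraries shared up to 349 kept barcodes. Cells were classed by marker UMIs. Plasma cells had at least 3 UMIs of Jchain, the joining chain of IgM and IgA, and at least 2 of Sdc1, Tnfrsf17 and Prdm1 together, and numbered 10 in the control, 29 in the Ang II and 169 in the B6.SLE123 library (0.0637%, 0.207% and 1.01% of kept cells). B cells numbered 13133, 11390 and 13061, and plasmacytoid dendritic cells (pDCs) 20, 5 and 27. Levels are given as CPM, the UMIs of a gene scaled to 1000000 gene UMIs of the class, in the order control, Ang II, B6.SLE123. Pax5, a B cell identity factor lost in plasma cells, was at 0, 6.08 and 7.50 CPM in plasma cells and at 322, 256 and 199 CPM in B cells. Slamf7, a plasma cell receptor, was at 327, 324 and 177.5 CPM in plasma cells and 42.5, 37.1 and 34.4 CPM in B cells. Immunoglobulin genes and Jchain held 57.04%, 61.1% and 55.4% of the UMIs of plasma cells and 2.07%, 1.81% and 3.54% of those of B cells. Each library carried 6 hashtags, C0301 to C0306, which the sources used here do not tie to conditions. Hashtag values are therefore given without a condition and no 2-HOBA comparison was made. Only the male and female hashtags of the control library could be told apart, by Xist UMIs.

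The genes were far higher in plasma cells than in B cells of the same library. Together they gave 3.06%, 2.64% and 3.32% of the UMIs of plasma cells, in the same order of libraries, and 0.557%, 0.539% and 0.742% of those of B cells. A plasma cell held on average 309, 450 and 393 UMIs of these genes, and a B cell 11.8, 17.0 and 18.4. A gene entered a comparison when the mean of its levels in the 2 classes corresponded to at least 10 UMIs in the smaller class, so a gene low in one class can enter through the other. This left 36, 41 and 42 of the 42 genes. The 6 that did not enter in the control library gave 2 to 15 UMIs in its plasma cells, with log2 ratios of 3.69 for Fkbp11, 3.23 for Dnajb9, 1.45 for Hyou1, 0.05 for Atf4, -0.12 for Ddit3 and -1.10 (-4.15 to 0.76) for Ssr1. The median log2 ratio of plasma cells to B cells was 2.27, 2.19 and 2.10 over these genes, while the median over all genes that entered was -1.24, -1.47 and -1.16. At least 2-fold higher in plasma cells were 34 of 36, 37 of 41 and 37 of 42 genes, and none of the genes that entered was 2-fold lower in any library. Of all genes that entered, 12.5%, 6.29% and 6.06% were at least 2-fold higher and 57.6%, 66.7% and 57.8% at least 2-fold lower. With immunoglobulin genes and Jchain left out of the totals, the median log2 ratio over the same genes was 3.45, 3.53 and 3.21. Of the genes that entered on the full totals, all of the 36, 41 and 42 then had a log2 ratio above 0. At least 2-fold higher were 36, 40 and 40 of them. Over all genes that entered, the median on these totals was -0.05, -0.13 and -0.05. The share of all genes at least 2-fold higher on these totals is not given here.

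Of the 3 transcription factors, Xbp1 was much higher in plasma cells on the full totals, and Atf4 and Ddit3 were not. Xbp1 was at 1534, 1181 and 1632 CPM in plasma cells and at 70.0, 75.8 and 130 CPM in B cells. The log2 ratios were 4.45 (95% interval 4.21 to 4.69), 3.96 (3.83 to 4.09) and 3.65 (3.58 to 3.71), and the B cell level of the B6.SLE123 library was the highest of the 3. Atf4 was at 79.2, 79.0 and 98.0 CPM in plasma cells and at 76.6, 70.6 and 72.3 CPM in B cells. Its log2 ratio was 0.16 (-0.33 to 0.62) in the Ang II and 0.44 (0.22 to 0.65) in the B6.SLE123 library, and it had too few UMIs to enter in the control library. Ddit3, the gene of the stress factor CHOP, gave 2, 8 and 21 UMIs in plasma cells. In the B6.SLE123 library, where it entered, its log2 ratio of -0.93 (-1.63 to -0.30) was the lowest of the 42. This direction rested on the full totals. Without immunoglobulin genes and Jchain in them, all 42 genes, Ddit3 included, had a log2 ratio above 0 in that library. Of these, 40, Atf4 included, were at least 2-fold higher, beside a median of -0.05 over all genes on the same totals.

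Of 12 chaperones and co-chaperones, 9 of 10 that entered in the control library, 11 of 12 in the Ang II library and 11 of 12 in the B6.SLE123 library were at least 2-fold higher in plasma cells. Hspa5, the gene of BiP, was at 1029.5, 1033 and 1585 CPM in plasma cells and 331, 357 and 440 CPM in B cells, log2 ratios of 1.64, 1.53 and 1.85. Hsp90b1, which encodes the ER HSP90 protein GRP94, was at 4415, 3513 and 4253 CPM against 507, 480 and 735 CPM (3.12, 2.87 and 2.53). Mzb1, a B-lineage co-chaperone that acts with GRP94, was at 3890, 3095 and 4013 CPM against 478, 419 and 807 CPM (3.03, 2.88 and 2.31). For both of the latter genes the ratio was smallest in the B6.SLE123 library, whose B cells had the highest level. Creld2, a stress-induced ER protein, reached 614, 664 and 1023 CPM against 41.1, 35.2 and 95 CPM (3.90, 4.24 and 3.43). Manf, a stress-induced secreted protein that binds BiP, was at 980, 628 and 1253 CPM against 133, 115 and 226 CPM (2.88, 2.46 and 2.47). Sdf2l1, a partner of BiP and its J-proteins, was at 455, 375 and 560 CPM against 48.7, 44.2 and 102 CPM (3.22, 3.08 and 2.46), and Dnajb9, a J-protein, was at 139, 124 and 131 CPM against 14.8, 14.9 and 27.1 CPM. The exception was Canx, the gene of the membrane lectin chaperone calnexin. It was at 198, 140 and 128 CPM in plasma cells and 178, 197 and 187 CPM in B cells, with log2 ratios of 0.15 (-0.56 to 0.78), -0.50 (-0.86 to -0.15) and -0.54 (-0.72 to -0.36). Without immunoglobulin genes and Jchain in the totals, the log2 ratio of Canx was above 0 in all 3 libraries. Calr, the gene of the soluble paralog calreticulin, had a log2 ratio of 1.34 in the B6.SLE123 library.

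On the full totals, all 8 disulfide and prolyl isomerases except Pdia3 in the B6.SLE123 library were at least 2-fold higher in plasma cells wherever they entered. Txndc5, a disulfide isomerase, was at 1584, 1272 and 1134 CPM in plasma cells against 108, 121 and 126 CPM in B cells (log2 ratios 3.87, 3.39 and 3.16). Pdia4 was at 999.8, 1130 and 1021 CPM against 206, 235 and 288 CPM (2.28, 2.27 and 1.83). Fkbp11, a prolyl isomerase of secretory cells, was at 148, 160 and 289 CPM against 11.5, 8.27 and 23.6 CPM. Its log2 ratio was 4.27 in the Ang II and 3.62 in the B6.SLE123 library. Pdia3, which works with calnexin and calreticulin on glycoproteins, was among the 5 lowest in all 3 libraries, at 1.22, 1.05 and 0.79.

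Of the 11 genes of the translocon, the translocon-associated TRAP complex and the signal peptidase, 9 of 10, 9 of 11 and 10 of 11 were at least 2-fold higher. Sec61b, a translocon subunit, was at 1178, 972 and 1357 CPM in plasma cells against 411, 329 and 486 CPM in B cells, log2 ratios of 1.52, 1.56 and 1.48. Ssr4, a TRAP subunit, was at 2198, 1657 and 2074 CPM against 172, 154 and 295 CPM (3.68, 3.43 and 2.82). Sec11c, a catalytic subunit of the signal peptidase, was at 1396, 1060 and 1440 CPM against 237, 204 and 300.5 CPM (2.56, 2.38 and 2.26). Subunits of one complex differed in their ratio. On the full totals, only the small translocon subunit Sec61g of this group stayed under 2-fold in all 3 libraries (0.79, 0.86 and 0.66). Among TRAP subunits Ssr1 was at 0.77 in the Ang II and 1.28 in the B6.SLE123 library.

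All 7 genes of ER-associated degradation were at least 2-fold higher in plasma cells in each library. Derl3, whose product helps to move misfolded proteins out of the ER, had the highest ratio of the 42 genes in all 3. It was at 346, 328 and 283 CPM in plasma cells and 6.48, 4.05 and 19.6 CPM in B cells, with log2 ratios of 5.74 (5.17 to 6.27), 6.34 (6.01 to 6.67) and 3.86 (3.69 to 4.02). The spread of these ratios followed the B cell levels, while the plasma cell levels were close. Edem1 and Edem2, which mark misfolded glycoproteins by mannose trimming, had log2 ratios of 3.96, 4.11 and 3.58 and of 4.32, 3.80 and 3.39. Edem1 itself was at 663, 677 and 784 CPM against 42.5, 39.1 and 65.5 CPM. Herpud1, a stress-induced scaffold of the degradation complex, was at 386, 377 and 679 CPM against 82.4, 94.6 and 124 CPM (2.23, 1.99 and 2.45). Outside these groups, Ell2, an elongation factor that favors secretory immunoglobulin mRNA, was at 257, 164 and 224 CPM against 25.8, 28.5 and 33.4 CPM (3.32, 2.53 and 2.75).

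A wider set of 101 genes that are not among the 42 was also compared, made up of other genes of the pathway and of plasma cell regulators. In the B6.SLE123 library, where 6.06% of all genes were at least 2-fold higher and 57.8% lower with a median of -1.16, the median log2 ratio of plasma cells to B cells was 0.77 for 11 other degradation genes (5 at least 2-fold higher), 1.19 for 12 subunits of the oligosaccharyl transferase (7 higher, 1 lower), 1.03 for 8 genes of the signal recognition particle and its receptor (5 higher), 0.84 for the 5 of 6 translocon partners that entered (1 higher), 0.19 for the 12 of 15 other folding and oxidation genes that entered (3 higher) and 1.17 for the 22 of 23 genes of ER to Golgi traffic that entered (12 higher, 1 lower). Among the 3 sensors, Ern1 was at 47.5 CPM in plasma cells and 3.63 CPM in B cells, a log2 ratio of 3.71, and had a ratio of 3.81 in the Ang II library. Atf6 was at 0.61 and 0.36 and Eif2ak3 at 0.65 and -0.52 in these 2 libraries. Of 11 targets of PERK and ATF4, 6 entered, with the highest ratios for Chac1, a glutathione-degrading enzyme (29 UMIs against 26, log2 ratio 4.18), and Asns, asparagine synthetase (3.50). The 8 plasma cell regulators had a median of -3.62, with 2 at least 2-fold higher and 6 lower. The highest of all 101 genes was Prdm1 at 5.01, which the gate itself used, and the lowest were the B cell factors Spib, Pax5 and Bach2, at -4.93, -4.73 and -4.73.

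Cells just outside the plasma cell gate by their Sdc1, Tnfrsf17 and Prdm1 UMIs were close to those inside it in these genes, and cells without any such UMI were not. In the B6.SLE123 library, the cells with at least 3 Jchain UMIs and 0, 1, 2, 3 or at least 4 UMIs of Sdc1, Tnfrsf17 and Prdm1 numbered 504, 98, 59, 37 and 73. The 42 genes held 1.24%, 3.43%, 3.46%, 3.25% and 3.26% of their UMIs, and Xbp1 was at 378, 1250, 1628, 1576 and 1660 CPM. Immunoglobulin genes and Jchain held 10.1%, 48.6%, 57.2%, 52.4% and 55.5%. The step lay between 0 and 1 UMI, below the gate, and the 98 cells with 1 UMI were not counted as plasma cells. The 12 cells with at least 2 UMIs of the 3 genes but no Jchain UMI had 0.770% of UMIs from the 42 genes and 1.57% from immunoglobulin genes and Jchain.

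Among all gated classes with at least 20 cells, and the control plasma cells, plasma cells had the highest CPM for 30 of the 42 genes in the control library (11 classes), 33 in the Ang II library (9 classes) and 35 in the B6.SLE123 library (11 classes). Over all genes above a mean of 10 CPM, plasma cells were highest for 2.42%, 2.33% and 1.86%. With immunoglobulin genes and Jchain left out of the totals, plasma cells were highest for 40 of 42 in each library, against 12.5%, 13.6% and 9.15% of all genes. In the B6.SLE123 library there were 7 exceptions on the full totals. Pdia3 and P4hb were highest in basophils, Canx in phagocytes expressing C1q genes at 349 CPM, and Sec61g in pDCs at 790 CPM. Ddit3 was highest in T cells, at 91.9 CPM from 5 UMIs in 28 cells. The others were Hyou1 and Ssr1. The summed share of the 42 genes was next highest in pDCs, the interferon-producing dendritic cells, in the control library at 1.30%. In the B6.SLE123 library it was next highest in basophils at 1.12%, followed by pDCs at 1.06%. It was lowest in neutrophils, at 0.266%, 0.291% and 0.274%.

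**Figure D1:**
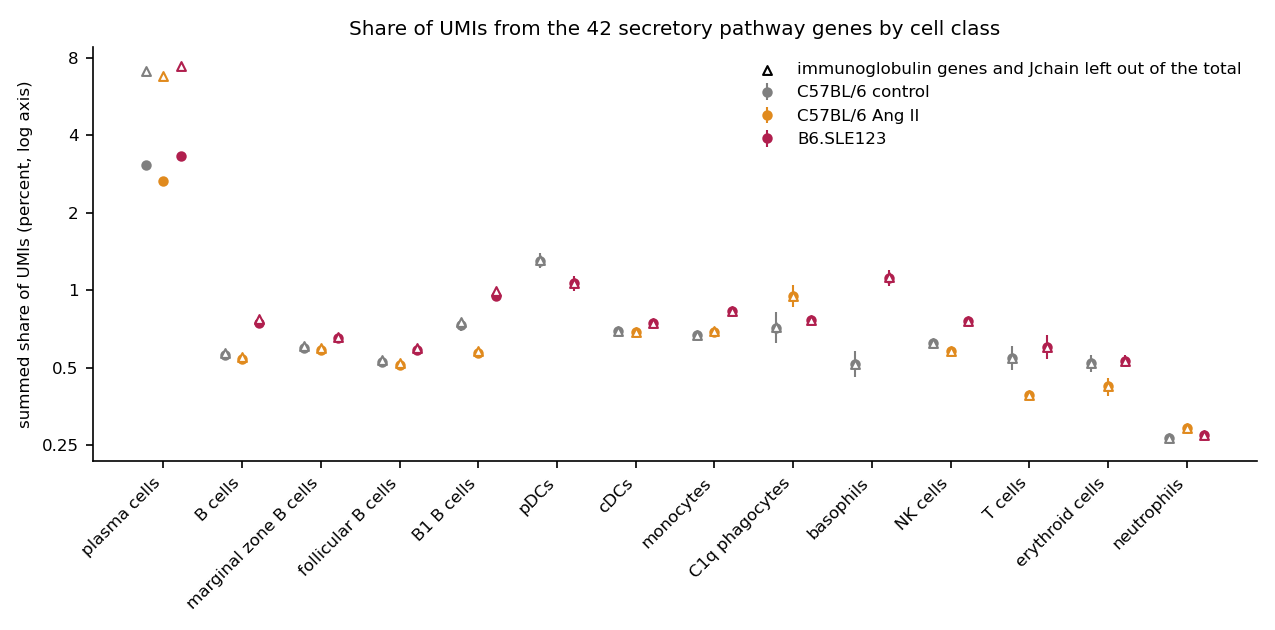
Summed share of UMIs from the 42 genes (y axis, percent, log axis) in each cell class (x axis) of the 3 libraries, with bars for the 95% counting interval and triangles for the share after immunoglobulin genes and Jchain are left out of the total. Plasma cells lie at 2.64% to 3.32%, above the pDCs, B cell subsets and other classes, and neutrophils lie lowest at 0.266% to 0.291%.

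Outside B cells and plasma cells, Derl3 gave 0 UMIs in pDCs, basophils, dendritic cells, neutrophils, T cells and erythroid cells of the B6.SLE123 library, with an upper limit of 1.79 CPM in neutrophils and 42.9 CPM in the 27 pDCs, the latter above its level of 19.6 CPM in B cells. Mzb1 was at 81.3 CPM in pDCs (7 UMIs) and 16.1 CPM in NK cells, against 807 CPM in B cells. Sec61b was at 1543 CPM in pDCs of the control library (log2 ratio to B cells 1.91, 1.62 to 2.18) and at 1324 CPM in those of the B6.SLE123 library (1.45). Xbp1 was at 233 and 232 CPM (1.73, 0.92 to 2.44, and 0.84, 0.12 to 1.47). Mzb1 was lower in pDCs than in B cells, at -1.04 and -3.31. The pDCs carried the marker Bst2 at 5708 and 5368 CPM in these libraries.

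Within the B6.SLE123 library, plasma cells of the 6 hashtags (11 to 63 cells each) differed more in Hspa5, Hsp90b1 and Creld2 than in Xbp1, Txndc5, Sec11c and Ell2. The summed share ran from 2.16% to 4.50%, with a median of 3.23%. Hspa5 had a lowest, median and highest CPM of 792, 1487 and 2832, Hsp90b1 of 1793, 4213 and 6938, and Creld2 of 350, 847 and 2208. Hashtag C0302 was the highest and C0306, with 11 cells, the lowest for these 3 genes. Xbp1 ran over 1250, 1505 and 2005 CPM, Txndc5 over 951, 1079 and 1231, Sec11c over 1184, 1446 and 1497, and Ell2 over 208, 219 and 252. These 4 genes stayed within a narrower range, relative to their level, than Hspa5, Hsp90b1 and Creld2. For Xbp1, Creld2 and Derl3 (192 to 465 CPM) the lowest plasma cell hashtag lay above the B cells of all 3 libraries.

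**Figure D2:**
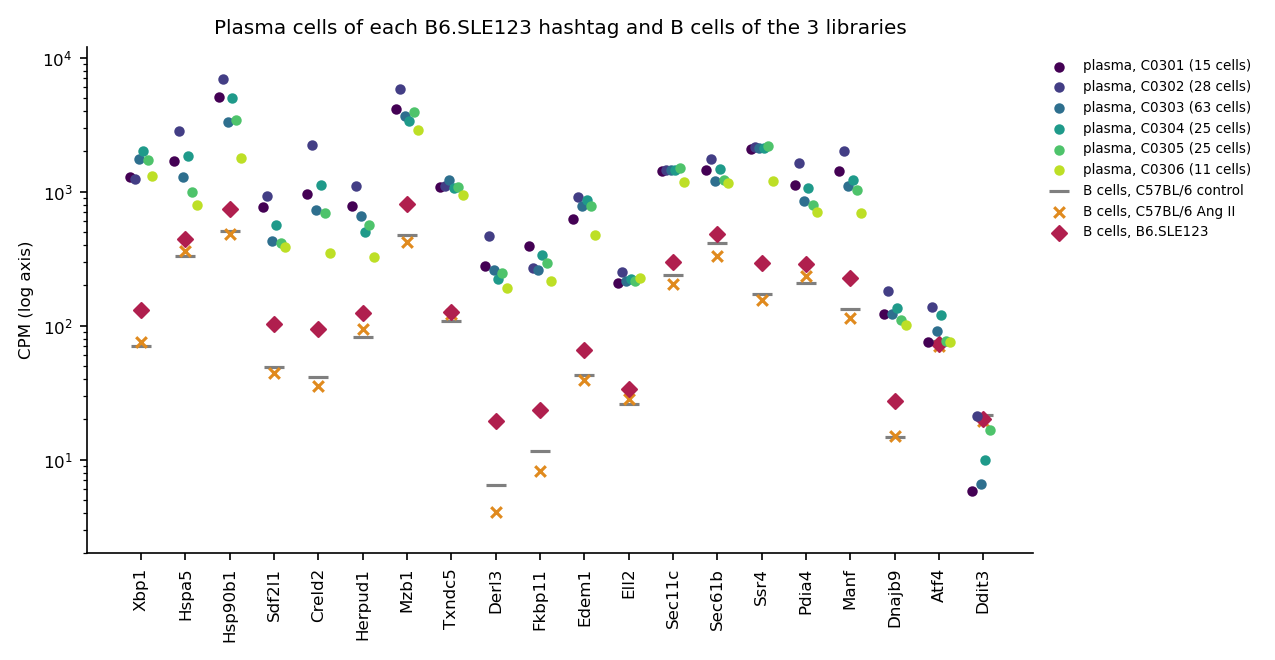
CPM (y axis, log axis) of the 20 genes described in full in plasma cells of each hashtag of the B6.SLE123 library and in B cells of the 3 libraries. Hspa5, Hsp90b1 and Creld2 run over 792 to 2832, 1793 to 6938 and 350 to 2208 CPM between hashtags, while Txndc5 and Ell2 lie within 951 to 1231 and 208 to 252 CPM.

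The plasma cells of the 3 libraries were then set side by side. Between B6.SLE123 and Ang II plasma cells the median log2 ratio was 0.32 over 41 genes that entered and 0.26 over all genes, and 0 of the 41 were 2-fold apart (10.6% of all genes were at least 2-fold higher and 4.06% lower). Manf came closest to 2-fold, at 1253 against 628 CPM (log2 ratio 0.997, 0.83 to 1.17). It was followed by Fkbp11 and Herpud1 (both 0.85), Spcs3 (0.82) and Selenok (0.68), and the lowest were Hyou1 (-0.44), Sec61g (-0.38), Derl3 (-0.21), Txndc5 (-0.17) and Pdia4 (-0.15). Against the 10 control plasma cells, 1 of 39 genes was at least 2-fold higher in the B6.SLE123 library (17% of all genes higher and 5.56% lower), namely Ssr2 at 356 against 168 CPM, the latter from 17 UMIs (1.08, 0.39 to 1.87). Its median was 0.18 beside 0.14 over all genes. Xbp1 differed by 0.09 (-0.14 to 0.33) and Hspa5 by 0.62 (0.34 to 0.92), while Txndc5 was lower, at -0.48 (-0.71 to -0.24). For Ang II against control plasma cells the median was -0.17 beside -0.23, with 0 of 39 genes 2-fold apart (7.99% of all genes higher and 8.31% lower). The highest was Hyou1 (0.75, -0.20 to 1.86) and the lowest Ell2 (-0.65, -1.30 to 0.05). The 2 last comparisons share the control cells, so their values are not independent. The plasma cells also differed in make-up between libraries. Those with a UMI of Mki67 or Top2a numbered 2 in the control, 10 in the Ang II and 79 in the B6.SLE123 library. Those expressing mostly a switched heavy chain numbered 1, 5 and 77. The part of this make-up in the differences between libraries was not tested.

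The B6.SLE123 plasma cells were split by cycling genes and by isotype. Neither split was made within hashtags, whose plasma cells differed in Hspa5, Hsp90b1 and Creld2 as described above. The part of the hashtags in these splits was not tested. The 79 cells with a UMI of Mki67 or Top2a had 3.89% of UMIs from the 42 genes and 50.0% from immunoglobulin genes and Jchain, and the other 90 cells had 2.74% and 60.8%. All 42 genes had a log2 ratio above 0, with a median of 0.45 beside 0.33 over all genes, and none was 2-fold apart (10.9% of all genes were at least 2-fold higher and 2.74% lower). Of the 42 genes, 27 lay above the median of all genes. Without immunoglobulin genes and Jchain in the totals 26 of the 42 were above 0, with a median of 0.10. Hspa5 had the highest ratio, at 2080 against 1083 CPM (0.94, 0.83 to 1.05), followed by Creld2 (0.83), Edem1 (0.81), Pdia3 (0.77) and Manf (0.76). Txndc5 (0.05, -0.07 to 0.17), Ell2 (0.07) and Xbp1 (0.15, 0.05 to 0.25) were near 0.

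Of the same cells, 92 expressed mostly Ighm and 77 mostly a switched heavy chain. The median log2 ratio of IgM to switched cells was -0.19 beside -0.03 over all genes, and 1 of 42 genes was at least 2-fold higher (3.94% of all genes higher and 4.37% lower), Ddit3, from 15 against 6 UMIs. Txndc5 was higher in IgM cells, at 1402 against 861 CPM (0.70, 0.58 to 0.83), whereas Txndc11 (-0.88, -1.08 to -0.68), Hspa5 (-0.72, -0.83 to -0.62) and Edem1 (-0.70, -0.85 to -0.55) were lower. Cycling and isotype overlapped, since 30 of the 92 IgM cells and 49 of the 77 switched cells were cycling. Within cycling cells the ratios of Txndc5, Txndc11, Hspa5 and Edem1 were 0.45, -0.65, -0.65 and -0.52, and within the other cells 1.29, -0.91, -0.27 and -0.50, so that all 4 kept their direction in both.

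**Figure D3:**
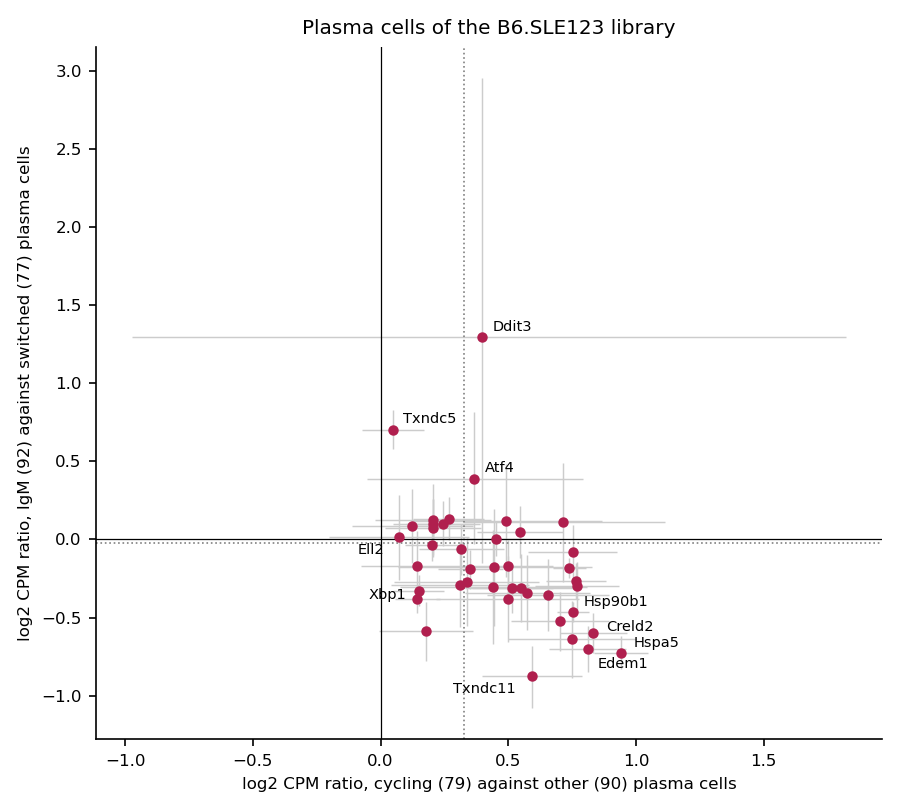
Log2 CPM ratio of cycling to other plasma cells (x axis) against that of IgM to switched plasma cells (y axis) in the B6.SLE123 library, 1 point per gene for the 42 genes, with grey bars for the 95% counting interval and dotted lines for the median over all genes (0.33 and -0.03). All points lie right of 0 on the x axis (26 of 42 would without immunoglobulin genes and Jchain in the totals), Hspa5 is farthest right at 0.94, and Txndc5 lies high on the y axis at 0.70 with an x value of 0.05.

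In B cells the 42 genes were higher in the B6.SLE123 library than in the control library. The median log2 ratio was 0.42 against -0.05 over all genes. Of the 42 genes, 37 were above 0, 38 were above the median of all genes, and 36 had an interval wholly above 0. The share of all genes with such an interval is not given here. At least 2-fold higher were 4 of 42 genes, beside 7.27% of all genes, and none was 2-fold lower (2.71%). They were Derl3 at 19.6 against 6.48 CPM (1.59, 1.35 to 1.84), Creld2 at 95 against 41.1 CPM (1.21, 1.11 to 1.31), Sdf2l1 at 102 against 48.7 CPM (1.07, 0.98 to 1.16) and Fkbp11 at 23.6 against 11.5 CPM (1.03, 0.84 to 1.23). Next came Xbp1 at 130 against 70.0 CPM (0.89, 0.82 to 0.97), and Hspa5 was at 440 against 331 CPM (0.41, 0.37 to 0.45). Atf4 and Ddit3 did not share this direction, at -0.08 (-0.17 to 0.00) and -0.11 (-0.27 to 0.06), and Selenos (-0.17) and Sec61g (-0.15) were the lowest. Without hashtag C0302 of the B6.SLE123 library, 1 gene in place of 4 was at least 2-fold higher, with a median of at least 0.36 whichever hashtag was left out.

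Much of this difference went with the B cells that held Jchain transcripts. B cells with at least 3 Jchain UMIs numbered 58 in the control, 59 in the Ang II and 553 in the B6.SLE123 library. Immunoglobulin genes and Jchain held 13.9%, 6.78% and 16.8% of their UMIs, and the 42 genes 1.44%, 1.28% and 1.68%. Among B cells without a Jchain UMI (11271 in the B6.SLE123 and 13003 in the control library) the median log2 ratio was 0.15, beside -0.05 over all genes, and 0 of 42 genes were 2-fold apart (5.05% of all genes were at least 2-fold higher and 2.55% lower). Sdf2l1 was highest there, at 74.4 against 46.4 CPM (0.68, 0.58 to 0.79), followed by Dnajb9 (0.50), Edem2 (0.47), Mzb1 (0.45), Pdia3 and Pdia4 (both 0.44). Xbp1 was at 0.17 (0.08 to 0.27) and Derl3 at 0.42 (0.08 to 0.76), while Edem1 was at -0.21 (-0.34 to -0.08). Jchain marks cells that have begun to secrete antibody, but free RNA from plasma cells can add Jchain UMIs too. Cells just outside the plasma cell gate were also among the B cells. The 553 B cells outnumbered the 504 cells with at least 3 Jchain and 0 Sdc1, Tnfrsf17 and Prdm1 UMIs. Some of the 98 cells with 1 such UMI, where the 42 genes held 3.43% of UMIs, were thus among them. The part of each was not tested.

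**Figure D4:**
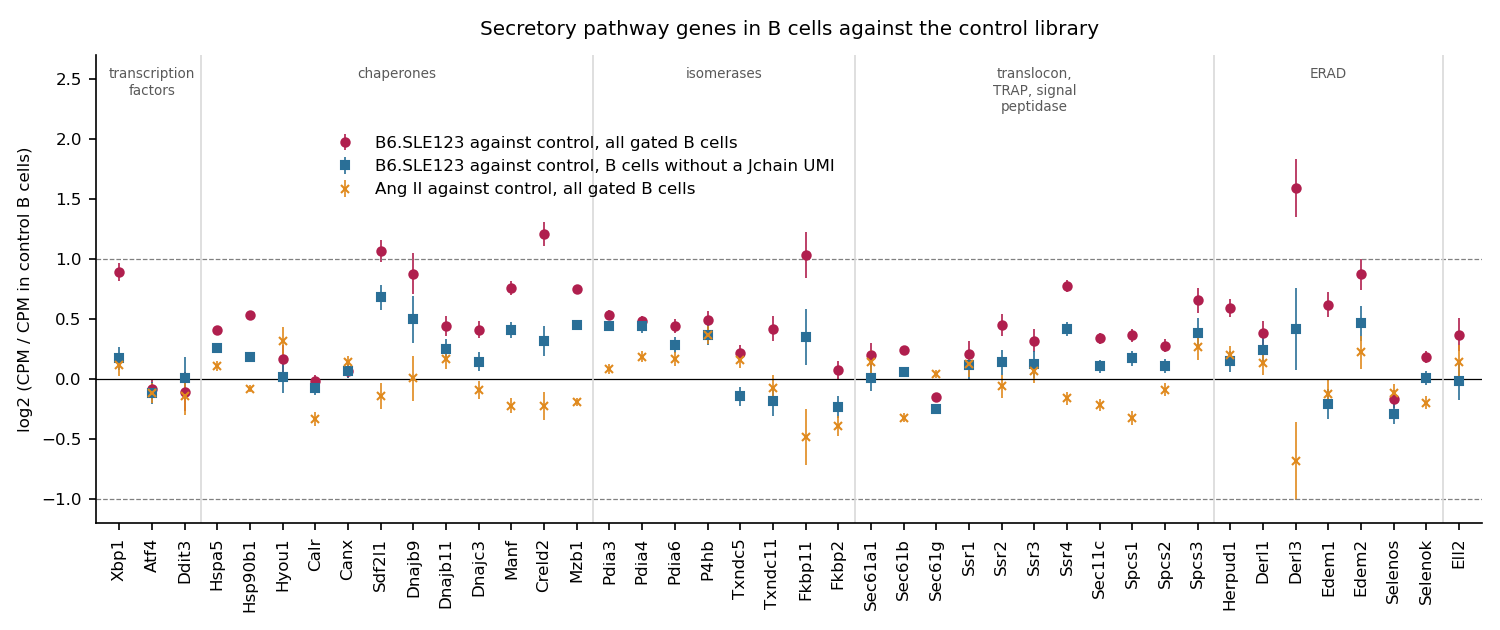
Log2 ratio of CPM in B cells to CPM in control B cells for each of the 42 genes (x axis), for the B6.SLE123 library with all B cells and with B cells without Jchain, and for the Ang II library, with bars for the 95% counting interval. Derl3, Creld2, Sdf2l1 and Fkbp11 exceed 2-fold with all B6.SLE123 B cells, and no gene does without the Jchain cells or in the Ang II library.

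The hashtag values of B cells showed how far the libraries overlapped. The summed share ran from 0.639% to 0.899% over the 6 B6.SLE123 hashtags, from 0.541% to 0.571% over the 6 control hashtags and from 0.530% to 0.561% over the 6 Ang II hashtags. For 24 of the 42 genes every B6.SLE123 hashtag was above every control hashtag, which held for 9.05% of all genes, and for none of the 42 was every one below (10.7% of all genes). Xbp1 had a lowest, median and highest CPM of 97.1, 131 and 165 in the B6.SLE123 hashtags and of 58.7, 68.9 and 80.6 in the control hashtags. Hspa5 ran over 377, 442 and 520 CPM against 298, 329 and 365, and Derl3 over 9.08, 16.8 and 39.2 against 3.66, 6.47 and 10.5, the last of which overlapped. Among B cells without Jchain, 11 of 42 genes were above in every hashtag (6.08% of all genes): Pdia3, Pdia6, P4hb, Creld2, Sdf2l1, Manf, Ssr4, Spcs1, Spcs3, Edem2 and Mzb1. Selenos, a degradation factor, was below in every one (8.75% of all genes). For Sdf2l1 these cells ran over 61.3, 72.6 and 94.2 CPM against 39.0, 46.7 and 52.2, and for Mzb1 over 542, 616 and 675 CPM against 412, 436 and 529.5. Xbp1 overlapped, at 62.8, 71.8 and 89.1 CPM against 58.4, 63.8 and 72.9. Xist is a transcript of female cells. In the control library 0.165% to 0.386% of cells of hashtags C0301 to C0303 had an Xist UMI, against 49.2% to 51.7% of C0304 to C0306. The former were thus the sham males and the latter the females. In the B6.SLE123 hashtags the share was 46.6% to 54.9%. The B6.SLE123 median over all B cells was 0.47 against the male control hashtags C0301 to C0303 and 0.37 against the female C0304 to C0306.

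Targets of ATF4 that are not among the 42 genes ranged widely between B6.SLE123 and control B cells, most of them at low counts. Psat1 and Mthfd2, enzymes of serine synthesis and of mitochondrial folate metabolism, gave 774 UMIs against 284 (log2 ratio 1.22, 1.02 to 1.42) and 777 against 362 (0.88, 0.69 to 1.06). Asns gave 138 UMIs against 11 (3.42, 2.54 to 4.46), Atf3, a stress-induced factor, 102 against 25 (1.80), Nupr1 38 against 14, Trib3 22 against 7 and Chac1 26 against 0. The other 4 were closer between the libraries, with Sesn2 at 0.54, Ppp1r15a at 0.35, Slc3a2 at -0.05 and Slc7a11 at 7 UMIs in each. Without the cells holding Jchain, Asns gave 46 against 6 UMIs, Atf3 82 against 25, Psat1 397 against 263 and Mthfd2 474 against 347. Atf4 itself had the log2 ratio of -0.08 given above.

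By B cell subset, the difference between the B6.SLE123 and control libraries had a median of 0.08 in follicular B cells (1 of 42 genes at least 2-fold higher, 2.09% of all genes) and 0.21 in marginal zone B cells (0 of 42, 2.08%). Follicular B cells numbered 2164 in the B6.SLE123 against 4620 in the control library, and marginal zone B cells 720 against 732. The part of the subset make-up in the difference over all B cells was not tested. The B1 cells, which secrete natural antibody, numbered 260 against 36, and the 42 genes held 0.945% against 0.734% of their UMIs. Over the 33 genes that entered the median was 0.42 beside -0.06 over all genes. At least 2-fold higher were 7 of the 33, beside 107 of all 2388 genes that entered. Among these cells Ssr4 gave 530 UMIs against 25 (log2 ratio 1.63, 1.05 to 2.27) and Xbp1 178 against 9 (1.53, 0.57 to 2.68), while Txndc11 gave 94 against 21 (-0.62, -1.31 to 0.14). Immunoglobulin genes and Jchain held 4.68% of UMIs in the B6.SLE123 B1 cells and 2.03% in those of control. Within the B6.SLE123 library, 12 of 42 genes were at least 2-fold higher in B1 than in follicular B cells (5.4% of all genes). Among them were Derl3 (2.68, 1.92 to 3.47), Mzb1 (1.93, 1.83 to 2.03) and Creld2 (1.86, 1.57 to 2.16). Between marginal zone and follicular B cells of that library, Derl3 was at 0.62 (-0.30 to 1.53). Mzb1 was at 1.21 (1.12 to 1.30) and Creld2 at -0.28 (-0.66 to 0.09) there. Cells holding Jchain were not taken out of these subsets.

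Ang II and control B cells differed by less than 2-fold in each of the 42 genes. The median log2 ratio was -0.07 beside 0.05 over all genes, 20 of 42 genes were above 0 and 0 of 42 were 2-fold apart (1.68% of all genes were at least 2-fold higher and 1.34% lower). Xbp1 was at 75.8 against 70.0 CPM (0.11, 0.03 to 0.20) and Hspa5 at 357 against 331 CPM (0.11, 0.07 to 0.15). The highest were the disulfide isomerase P4hb at 106 against 82.4 CPM (0.36, 0.29 to 0.44), Hyou1 (0.32), Spcs3 (0.27), Edem2 (0.22) and Herpud1 (0.20). The lowest were Derl3 at 4.05 against 6.48 CPM (-0.68, -1.0 to -0.35), Fkbp11 (-0.48), Fkbp2 (-0.39), Calr at 151 against 190 CPM (-0.33, -0.39 to -0.28) and Spcs1 (-0.32). Every Ang II hashtag lay above every control hashtag for P4hb, Hyou1 and Spcs3 (7.41% of all genes) and below for Calr, Sec61b, Spcs1, Fkbp2 and Selenok (4.35%). P4hb ran over 99.3, 107 and 114 CPM against 79.1, 81.9 and 87.7, and Calr over 135, 150 and 170 CPM against 178, 187 and 204.

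In pDCs, 23 genes entered the comparison of B6.SLE123 with control and 19 had too few UMIs, with a median of -0.26 beside 0.00 over all genes. None was at least 2-fold higher (3.59% of all genes), and 2 were at least 2-fold lower (3.89%), Mzb1 with 7 against 16 UMIs (-1.52, -3.04 to -0.16) and Selenos with 12 against 21 (-1.13, -2.29 to -0.04). Xbp1 was at 232 against 233 CPM and Hspa5 at 395 against 408 CPM, differences well within their counting intervals.

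In 23 B6.SLE123 and 26 control basophils the 42 genes held 1.12% and 0.517% of UMIs. Hspa5 gave 72 against 5 UMIs (3.50, 2.22 to 5.17), Sdf2l1 31 against 2 (3.61, 1.64 to 6.72), Calr 32 against 3 (3.07, 1.39 to 5.42) and Manf 28 against 4 (2.46, 0.95 to 4.44). Other genes gave nearly as many UMIs in the control cells, with Xbp1 at 10 against 8, Canx at 11 against 9, Selenos at 8 against 7, Spcs1 at 18 against 12 and Selenok at 36 against 37. The plasma cell genes Mzb1 and Derl3 gave 0 UMIs in these cells of both libraries, and immunoglobulin genes and Jchain held 0.0725% and 0.0166% of UMIs. Most of these UMIs came from few cells. In the B6.SLE123 library, 7 basophils of hashtag C0302 gave 44 of the Hspa5 UMIs and 7 of C0303 gave 26, with summed shares of 1.43% and 1.07%, while the other 4 hashtags, with 1 or 2 cells each, lay at 0.463% to 0.599%. In monocytes the median was 0.30, with 4 of 39 genes at least 2-fold higher (4.24% of all genes): Manf at 230 against 89.9 CPM (1.35, 0.98 to 1.74), Sdf2l1 (1.11), Creld2 and Edem2 (both 1.02). Leaving out each hashtag in turn gave 2 to 6 such genes and medians of 0.23 to 0.43, with 2 genes without hashtag C0303 of the B6.SLE123 library or without C0304 or C0306 of the control library, and 6 without C0305 of the control library. The immunoglobulin share of monocytes was 0.285% in the B6.SLE123 and 0.0267% in the control library, with 9 against 1 UMIs of Mzb1, and its part in these ratios was not tested. In NK cells the median was 0.29, and Xbp1 was the 1 gene of 39 at least 2-fold higher (2.79%), with 79 against 45 UMIs (1.12, 0.58 to 1.68), beside immunoglobulin shares of 0.137% and 0.0328%. Leaving out each hashtag gave 1 or 2 genes (2 without C0302 of the control library) and medians of 0.25 to 0.31.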

How the data were processed

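Droplet 5′ single-cell RNA sequencing of splenocytes gave 3 libraries of 2 pooled conditions each. The authors deposited UMI counts per gene and barcode, not normalized, with hashtag counts. The submitters' processing notes name Cell Ranger 6.0.0 and build mm10. The gene annotation is not given in the sources used here. Cells with 200 to 3500 genes and under 15% mitochondrial UMIs were kept. Hashtags were called per library with Otsu's threshold (scikit-image 0.26.0), and barcodes with several hashtags were removed as doublets; no other doublet caller was run, so doublets of a single hashtag remain. Cells were classed by marker UMIs (B cells Cd79a, Cd79b and Ms4a1; pDCs Siglech, Ccr9, Klk1 and Cox6a2; basophils Cpa3, Mcpt8, Ms4a2 and Fcer1a; follicular B cells Fcer2a; marginal zone B cells Cr2 with Dtx1, Cd1d1 and Cd9; B1 cells Bhlhe41, Zbtb32, Cd5 and Ctla4), and cells that met several gates other than that of plasma cells were left out. A further subset of B cells is not reported here.

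UMI counts were summed per library and class and written as CPM with exact Poisson 95% intervals, and log2 ratios with exact conditional intervals (Python 3.11.15, numpy 2.4.6, scipy 1.17.1, pandas 2.3.3). With 1 library per group no test was possible. A gene entered a ratio when its level, averaged over the 2 sums, corresponded to at least 10 UMIs in the smaller one, and 2-fold was the threshold of a count. A class needed 20 cells, or 10 for the contrasts of plasma cells. Ddit3 has 2 entries among the gene names, and the one with UMIs was used, the other holding 0 UMIs. The scripts were tested on simulated data. The intervals and limits for 0 UMIs (3 UMIs for a fold, otherwise the Poisson bound) cover counting error only.

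The 42 genes, the other lists and the gates were chosen with earlier results of these data known. Described in full were 20 genes named by that choice. Added were the 5 highest and 5 lowest ratios in comparisons of plasma cells with B cells or of a class between libraries. The 3 highest and 3 lowest of the other pathway and regulator genes were also named. Further genes named in other comparisons were picked after their values were seen. Alternatives were totals without immunoglobulin genes and Jchain, TMM scaling (edgeR 4.0.16 in R 4.3.3), other cell limits and expected counts, a stricter gate and leaving out each hashtag. Chosen after seeing the data were the contrasts of plasma cells between libraries, B cells without Jchain, the split of isotype within cycling cells, hashtag populations that do not overlap, and the other classes. A planned search of protein ends was not run.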

Additional observations from a re-analysis of the deposited data

How the results depend on the processing

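Among the medians and counts over the 42 genes, none turned its direction except the median of Ang II against control plasma cells, which was -0.17 and became 0.30 with TMM scaling. Of 2760 values of single genes under these alternatives, 94 had the other sign. Of the 42 genes in B6.SLE123 against control B cells, 6 had the other sign in B cells without Jchain (Edem1 went from 0.62 to -0.21) and 4 in B cells with under 3 Jchain UMIs (Txndc5 went from 0.22 to -0.12, -0.19 to -0.04). The medians of plasma cells against B cells moved, in control, Ang II and B6.SLE123 order, to 3.45, 3.46 and 3.21 without immunoglobulin genes and Jchain in the totals, and to 2.97, 3.34 and 3.10 with TMM. Over the genes that entered on the full totals, the Ang II median without immunoglobulin genes and Jchain was 3.53. An expected count of 30, which changes which genes enter and not their ratios, left 18 genes at least 2-fold higher in control plasma cells. With B cells without Jchain or with under 3 Jchain UMIs, both chosen after seeing the data, the B6.SLE123 median was 2.40 and 2.37. For B6.SLE123 against control B cells the same choices gave medians of 0.15 and 0.17 with 0 genes 2-fold apart, and cell limits read as UMIs gave 0.13 and 0 genes. TMM moved the median of Ang II against control B cells to -0.15. In pDCs, 1 gene was 2-fold apart with TMM, 6 with an expected count of 3 and 0 with one of 30. In plasma cells of B6.SLE123 against Ang II, 1 gene was 2-fold apart with barcodes of several hashtags kept. Against control, 2 were without immunoglobulin genes, 5 with TMM, 4 with several hashtags kept, 2 with an expected count of 3 and 0 with one of 30. In Ang II against control plasma cells, 1 was without immunoglobulin genes, with TMM, without the upper gene limit and with an expected count of 3.

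Leaving out each hashtag in turn gave medians of 2.25 to 2.30, 2.11 to 2.30 and 2.06 to 2.17 for plasma cells against B cells in the 3 libraries, with 34 to 34, 36 to 37 and 37 to 37 genes at least 2-fold higher. It gave 0.36 to 0.46 with 1 to 4 genes for B6.SLE123 and -0.09 to -0.03 with 0 genes for Ang II B cells, and -0.45 to -0.15 with 1 to 2 genes for pDCs. Between plasma cells it gave 0.25 to 0.46 with 0 to 2 genes for B6.SLE123 against Ang II, 0.13 to 0.25 with 1 to 2 against control, and -0.22 to -0.05 with 0 for Ang II against control. No paired analysis was possible because each group is 1 library and its hashtags are not tied to animals. Settings that left under 10 plasma cells or 20 pDCs in a library were not formed, among them the stricter gate in control (8 plasma cells) and limits read as UMIs for plasma cells (1, 0 and 4). Depth limits the control plasma cells (10) and the pDCs most, and 5 Ang II pDCs were too few to compare.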
